A study of Populus ussuriensis with 18 samples.

Results

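LATE ELONGATED HYPOCOTYL (LHY) is represented in the gene set by 2 copies, Potri.002G180800.v3.0 and Potri.014G106800.v3.0 (written without the version below), out of 30485 genes measured. They were chosen by name and identifier, with their levels in these libraries already known, so their levels and the ratios between groups are given as a description without a test. RNA was sequenced from roots of Populus ussuriensis plantlets, wild-type and propagated as clones, that were grown in vitro. Libraries were made after 12, 24, 48, 96 or 336 h on low-nitrogen (LN) medium with 0.05 mM nitrate and 0.025 mM ammonium. The control was sampled at 0 h, from plantlets rooted for 3 weeks on normal medium with 10 mM nitrate and 5 mM ammonium. Each group held 3 libraries labelled as biological replicates, 18 in all, and all plantlets were kept under 16 h of light and 8 h of dark. The sources used here do not give the hour of the day of root sampling, roots kept on normal medium to the later times were not analysed here, and the batch named in the labels is the time point itself. Nitrogen supply, time since transfer, hour of sampling and batch can therefore not be told apart. Counted from 0 h, every LN time except 12 h is a whole number of days.

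LHY encodes a transcription factor with a single MYB domain that sits at the core of the plant circadian clock. In Arabidopsis it accumulates around dawn with its close relative CCA1 and represses genes that are expressed in the evening, among them GIGANTEA (GI) and LUX ARRHYTHMO (LUX), and evening proteins in turn hold LHY down. Poplars have no separate CCA1 and carry a pair of LHY genes left by the genome duplication that they share with willows. In aspen trees, lowering LHY affects growth rhythm and cold hardiness. Their identifiers place the copies on chromosomes 2 and 14 of Populus trichocarpa, to whose gene set the values refer, and the lengths behind their FPKM values (fragments divided by gene length and library total) were 3572 bp for Potri.002G180800 and 3888 bp for Potri.014G106800.

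Both copies were measured in every library, at 1 FPKM or more in 18 of 18. Over all libraries the totals ranged from 15945075 to 18193661 fragments, a ratio of 1.14. The lowest LHY value rested on 171 fragments, with a 95% exact Poisson interval of 146 to 199 that covers counting error only. Replicates of a group correlated at r = 0.987 or more on the log2(FPKM + 1) scale across genes, except at 48 h, where replicate 3 correlated at 0.833 with each of the other libraries and these correlated at 0.995 with each other. Results at 48 h are therefore given with and without replicate 3. Of 4 root genes used to check the tissue, the root-layer regulator SCARECROW (SCR, Potri.006G114200) was at 3.39 to 12.5 FPKM in all libraries, and SHORT-ROOT (SHR, Potri.017G025900) at 3.199 to 15.7 FPKM. The other SCR genes were low, with Potri.016G143900 at 0.304 to 2.15 FPKM and Potri.T138100 at 0.0682 to 0.779 FPKM, and at 12 h only 2 of the 4 reached 1 FPKM.

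LHY was lowest at 12 h and highest at 336 h. Potri.002G180800 had 3.30, 3.05 and 3.80 FPKM at 12 h of LN, against 14.1, 14.1 and 15.04 FPKM in control roots. Potri.014G106800 had 2.66, 3.14 and 2.70 FPKM at 12 h, against 17.7, 17.4 and 19.7 FPKM in control roots. For both copies all libraries of 12 h lay below all control libraries, which was also true of 22.7% of the 22977 genes tested in this comparison. The mean of Potri.002G180800 was 4.26-fold lower (log2 ratio -2.09, SE 0.10, n = 3 each) and that of Potri.014G106800 6.44-fold lower (log2 ratio -2.69, SE 0.10). Of these 22977 genes, 168, the other copy among them, had a lower ratio than Potri.002G180800 and 72 a lower ratio than Potri.014G106800. In root samples, fewer cells with LHY RNA and less LHY RNA per cell cannot be told apart. The summed level of the root genes moved in the same direction as LHY at 12 h and 336 h, with a total of 7.34 to 9.04 FPKM at 12 h and 27.0 to 29.4 FPKM at 336 h, against 18.05 to 18.97 FPKM in control libraries. It did not do so at every time. At 24 h the total was 14.2 to 14.7 FPKM, below the control libraries, while neither LHY copy was below its control range. At 48 h it was 13.5 and 12.5 FPKM in replicates 1 and 2, where LHY was high, and 15.1 FPKM in replicate 3, where LHY was low. At 96 h it was 20.6 to 22.2 FPKM. At 12 h each root gene lay below the control libraries without overlap. By limma, 1 of the 3 tested fell then (SCR Potri.006G114200, log2 fold change -1.22), against 2.62% of all genes. At 336 h 1 of the 3 rose (SHR, 1.19), against 8.28% of all genes. The higher total at 336 h came mostly from SHR, at 15.1 FPKM against 6.07 FPKM in control roots. SCR Potri.006G114200 (0.085) and Potri.016G143900 (-0.11) overlapped the control at 336 h and were not called. The part of the root genes in the LHY levels was not tested.

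At 24 h both copies were close to the control. Potri.002G180800 had 17.9, 16.4 and 18.3 FPKM at 24 h, above the control libraries without overlap, as were 37.1% of 22792 genes. The ratio was 1.21 (log2 ratio 0.28, SE 0.06). Potri.014G106800 had 19.1, 18.4 and 19.3 FPKM at 24 h, within the range of the control libraries, and its ratio was 1.04 (log2 ratio 0.05, SE 0.06). Set against 12 h, the mean at 24 h was 5.17-fold higher for Potri.002G180800 and 6.68-fold higher for Potri.014G106800, again without overlap, as for 21.6% of 23077 genes. In that comparison 31 genes, the other copy among them, had a higher ratio than Potri.002G180800 and 15 a higher ratio than Potri.014G106800.

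**Figure D1:**
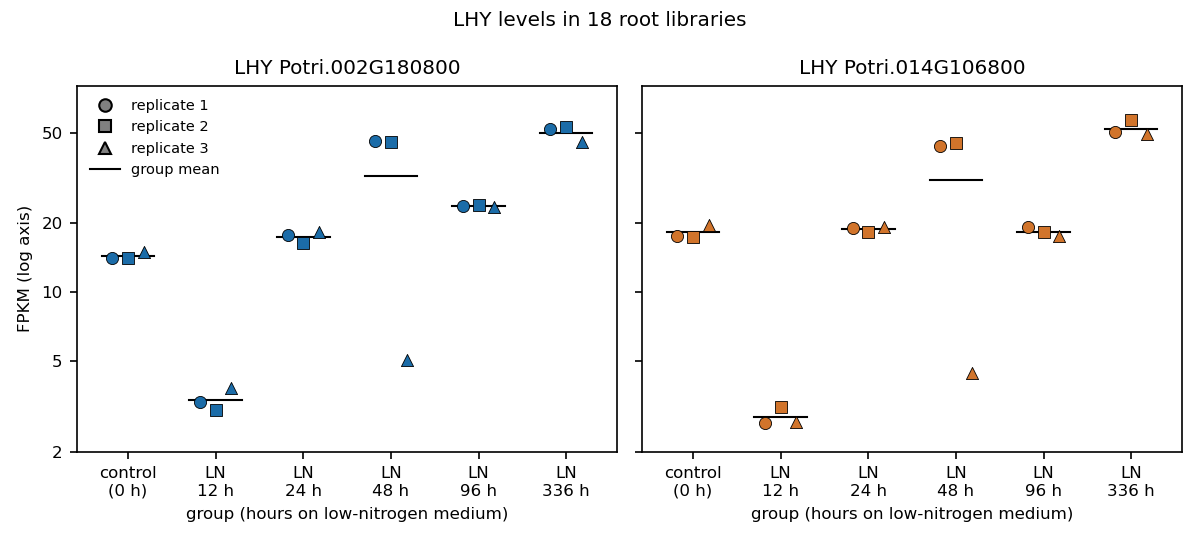
FPKM of each LHY copy (log axis) in the 18 root libraries, by group, with one symbol per replicate number and a line at the group mean. Both copies lie lowest at 12 h (2.66 to 3.80 FPKM) and highest at 336 h (45.5 to 56.6 FPKM), and at 48 h replicate 3 lies far below the other libraries of its group.

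The libraries of 48 h did not form one level. Potri.002G180800 had 46.1 and 45.3 FPKM in replicates 1 and 2 and 5.02 FPKM in replicate 3, and Potri.014G106800 had 43.7, 44.9 and 4.44 FPKM. The mean over all libraries was 32.1 ± 23.5 FPKM (SD, n = 3) at 48 h for the first copy, against 14.4 ± 0.53 FPKM in control roots. It was 31.0 ± 23.0 FPKM for the second, against 18.3 ± 1.30 FPKM in control roots. The groups overlapped for both copies, since replicate 3 lay below all control libraries and replicates 1 and 2 above them. Without replicate 3 the ratio of 48 h to control was 3.17 for Potri.002G180800 and 2.43 for Potri.014G106800, against 2.23 and 1.70 with it. In replicate 3 alone the copies were 2.87-fold and 4.11-fold below the control mean, and 1.48 and 1.57 times the mean of 12 h.

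At 96 h the copies differed from each other. Potri.002G180800 had 23.7, 24.2 and 23.6 FPKM at 96 h, above all control libraries, as were 45.1% of 23363 genes, with a ratio of 1.65 (log2 ratio 0.73, SE 0.03). Potri.014G106800 had 19.3, 18.3 and 17.7 FPKM at 96 h, within the control range, with a ratio of 1.01 (log2 ratio 0.01, SE 0.07). With fragments scaled by median ratios, the log2 ratio of Potri.014G106800 to control became -0.059 at 24 h and -0.18 at 96 h, so its small differences there have no fixed direction. The median log2 fold change of all genes tested lay above 0 by more than 0.1 at 12 h (0.15), 96 h (0.13) and 336 h (0.21).

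At 336 h both copies reached their highest group means. Potri.002G180800 had 51.6, 52.9 and 45.5 FPKM at 336 h, 3.47 times the control mean (log2 ratio 1.79, SE 0.07). Potri.014G106800 had 50.5, 56.6 and 49.1 FPKM at 336 h, 2.85 times the control mean (log2 ratio 1.51, SE 0.09). Neither overlapped the control, which was true in the same direction of 51.2% of 23320 genes, and 1078 genes had a higher ratio than Potri.002G180800 and 1531 a higher ratio than Potri.014G106800. Against 96 h, the means at 336 h were 2.098-fold and 2.83-fold higher without overlap, as for 35.9% of 23796 genes. All comparisons of LN time points with control share the control libraries, so their ratios are not independent.

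**Figure D2:**
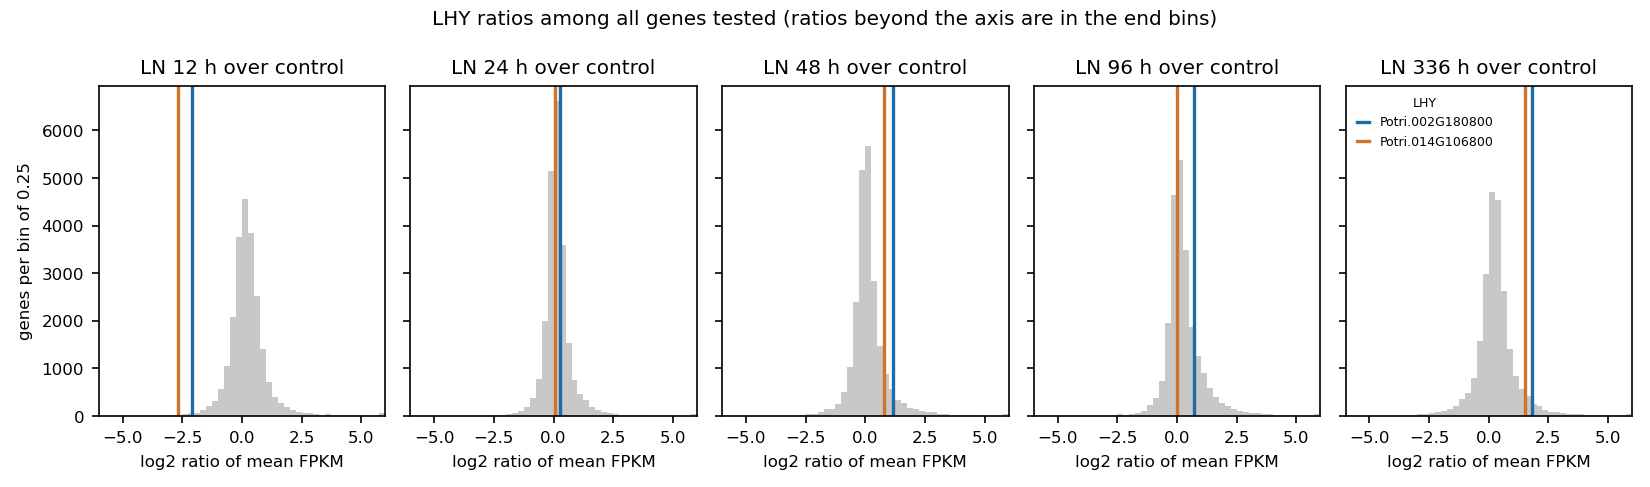
Number of genes (vertical axis, per bin of 0.25) by log2 ratio of mean FPKM of each LN time point to control, over all genes tested, with the LHY copies as vertical lines. At 12 h both copies stand in the far lower tail, at 24 h near the centre and at 336 h in the upper tail, and at 96 h the copies stand apart (0.73 and 0.01).

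In order of group means, Potri.002G180800 ran from 336 h (50.02 ± 3.93 FPKM) through 48 h, 96 h (23.8 ± 0.30), 24 h (17.5 ± 1.00) and control to 12 h (3.39 ± 0.38, SD, n = 3 each). The libraries of 48 h overlapped both of their neighbours in this order, and the other neighbours did not overlap. Potri.014G106800 ran from 336 h (52.1 ± 4.00 FPKM) through 48 h, 24 h (18.9 ± 0.45), 96 h (18.4 ± 0.79) and control to 12 h (2.83 ± 0.27). Here 24 h, 96 h and control overlapped one another and 48 h overlapped 24 h, while 336 h stood above and 12 h below their neighbours.

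The balance between the copies moved with time as well. The ratio of Potri.002G180800 to Potri.014G106800, in FPKM and so per length, was 0.8002, 0.811 and 0.762 in the control libraries, where Potri.014G106800 was the higher copy. At 12 h it was spread most, at 1.24, 0.972 and 1.41, and the 24 h libraries had 0.933, 0.889 and 0.948. Replicates of 48 h had 1.05, 1.01 and 1.13, those of 96 h had 1.23, 1.32 and 1.33, and those of 336 h had 1.02, 0.934 and 0.927. All 15 LN libraries lay above all 3 control libraries, but how often the ratio of other gene pairs does so was not examined. At 48 h and at 96 h Potri.002G180800 was the higher copy in every replicate. A scaling factor of a whole library cancels in this ratio. Replicate 3 of 48 h, where both copies were low, had a ratio of 1.13 and did not stand apart in it as it did in level.

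On the log2 scale the ratio exceeded that of the control at every LN time point, most at 96 h (0.71, SE 0.04) and 12 h (0.59, SE 0.16), then at 48 h (0.43, SE 0.05), 336 h (0.28, SE 0.05) and 24 h (0.22, SE 0.04). Exact two-sided permutation tests gave p = 0.1 at each of the 5 time points, also after Benjamini-Hochberg adjustment over them. With 3 libraries against 3 this is the smallest p possible, so no time point could pass 0.05, and the comparisons share the control libraries. Of the fragments from both copies, Potri.002G180800 gave 41.2% to 42.7% in control libraries, with 95% Wilson intervals spanning 39.2% to 44.9%. At 96 h its share was 53.1% to 55.1%, with intervals spanning 51.3% to 56.9%. The share was 50.9% or less in every 48 h library and 48.4% or less in those of 24 h and 336 h. At 12 h, with 366 to 431 fragments for both copies together, the intervals spanned 42.2% to 61.0%, and that of replicate 2 (42.2% to 52.1%) met those of the control. The interval of each 24 h library, with lower ends of 42.9% to 44.6%, also met at least one control interval. So did that of replicate 3 of 336 h, with a lower end of 44.8%. These intervals cover counting error within a library only, not the spread between roots, and are no test between groups. How fragments that match both copies, or that differ from the P. trichocarpa sequence, were assigned is not stated in the methods or labels, and its part in the ratio was not tested.

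**Figure D3:**
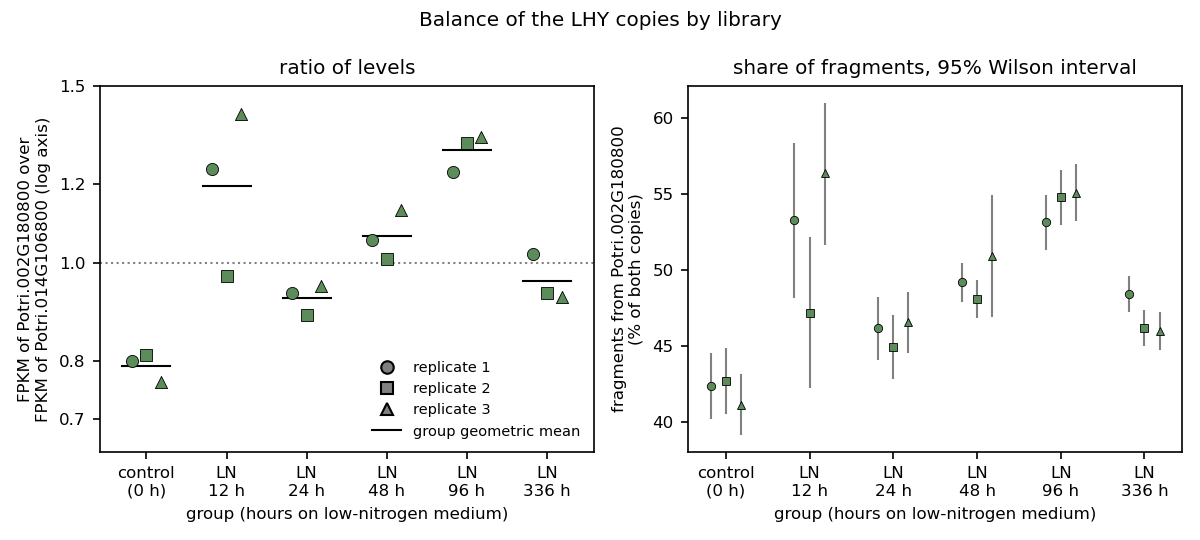
Left, FPKM of Potri.002G180800 over FPKM of Potri.014G106800 (log axis) in each library, with a line at the group's geometric mean. Right, the percentage of the copies' fragments that came from Potri.002G180800, with 95% Wilson intervals; the control libraries have the lowest ratios (0.762 to 0.811) and the 96 h libraries lie between 1.23 and 1.33.

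For the genes around LHY in the clock, 8 others annotated in the study's tables were taken: 4 REVEILLE genes (RVE2, RVE5 and a pair of RVE8 genes), a pair of GI genes, EARLY FLOWERING 3 (ELF3) and LUX. These tables list genes called in these same samples, so the list is not independent evidence that clock genes change. Genes were called with limma where they differed by at least 1 on the log2(FPKM + 1) scale in either direction, with a Benjamini-Hochberg adjusted p under 0.05.

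At 12 h, when LHY was lowest, 3 of the 8 genes were called lower and none higher, against 2.62% and 6.21% of all genes. All 8 had a p under 0.05 before and after adjustment. Counts by p alone, here and at the other times, have no share of all genes beside them and are a description only. Under the fold threshold, RVE2 (log2 fold change 0.63), RVE5 (0.18) and RVE8 Potri.006G133000 (0.34) were higher at 12 h than in control roots. RVE8 Potri.016G083900 (-0.31) and ELF3 (-0.26) were lower. The list's median log2 fold change was -0.29, beside 0.15 over all genes. The GI genes encode a large nuclear protein of the evening that acts in the clock and in flowering. GI Potri.002G064400 was at 13.9 ± 0.65 FPKM at 12 h and 31.5 ± 1.3 FPKM in control roots (SD, n = 3 each; log2 fold change -1.12, SE 0.06, limma adjusted p = 3e-06). GI Potri.005G196700 was at 9.14 ± 0.27 FPKM at 12 h and 21.2 ± 1.2 FPKM in control roots (-1.13, SE 0.07, limma adjusted p = 3.2e-06). LUX, a MYB-like DNA-binding member of the evening complex, was at 23.0 ± 2.0 FPKM at 12 h and 47.5 ± 2.7 FPKM in control roots (-1.02, SE 0.08, limma adjusted p = 1.9e-05). Its call rested on a value close to the threshold and was lost without control replicate 3 (-0.98) or without replicate 3 of 12 h (-0.95). GI and LUX were thus low at 12 h, as LHY was. LUX was below control in the other LN groups too, with means of 25.9, 29.1, 26.7 and 23.2 FPKM at 24, 48, 96 and 336 h. In replicate 3 of 48 h, where LHY was also low, the GI genes were at 35.7 and 34.6 FPKM.

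At 24 h none of the 8 was called by limma, against 5.69% of all genes, and none by limma-voom. Of the 8, 6 had a p under 0.05 both before and after adjustment, with log2 fold changes that stayed under 1 in size. At 24 h against 12 h, 1 of the 8 rose and none fell, against 1.35% and 1.16% of all genes. That gene was GI Potri.005G196700, at 20.3 ± 0.40 FPKM at 24 h and 9.14 ± 0.27 FPKM at 12 h (log2 fold change 1.07, SE 0.05, limma adjusted p = 1.2e-05). LUX was at 25.9 ± 1.3 FPKM at 24 h, against 23.0 ± 2.0 FPKM at 12 h (0.17, SE 0.08, limma adjusted p = 0.12), while both LHY copies were more than 5 times higher at 24 h than at 12 h.

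At 96 h limma again called none of the 8, against 10.0% of all genes, with 7 at a p under 0.05 before and after adjustment but under the fold threshold. With limma-voom 1 was called, which was LUX, and the share of all genes under limma-voom is not given here. RVE5 was at 7.90 ± 0.41 FPKM at 96 h and 3.94 ± 0.14 FPKM in control roots, a log2 fold change of 0.85 (SE 0.06) that stayed under the threshold of 1. ELF3, which links the evening complex to light input, was at 25.2 ± 0.17 FPKM at 96 h and 39.4 ± 2.0 FPKM in control roots (-0.62, SE 0.06).

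At 336 h, when LHY was highest, 3 of the 8 genes rose and 1 fell, against 8.28% and 4.07% of all genes. With quantile normalization or limma-voom the same number rose but 3 fell, ELF3 and GI Potri.002G064400 being called as well. The shares of all genes called under these settings are not given here. The list's median log2 fold change was -0.01, beside 0.21 over all genes. All risers were REVEILLE genes, which encode MYB proteins of the same family as LHY. RVE8 Potri.016G083900, whose Arabidopsis relative activates evening genes, had 15.6, 16.6 and 16.0 FPKM at 336 h, against 3.82, 4.89 and 4.02 FPKM in control roots (log2 fold change 1.71, SE 0.09, limma adjusted p = 1.6e-06). RVE5 was at 11.8 ± 0.93 FPKM at 336 h and 3.94 ± 0.14 FPKM in control roots (1.37, SE 0.08, limma adjusted p = 2.2e-06). RVE2 was at 18.3 ± 0.44 FPKM at 336 h and 6.77 ± 0.22 FPKM in control roots (1.31, SE 0.06, limma adjusted p = 1.1e-06).

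LUX was the gene that fell, with 23.2 ± 2.1 FPKM at 336 h and 47.5 ± 2.7 FPKM in control roots (log2 fold change -1.002, SE 0.08, limma adjusted p = 2.4e-05). It was on the threshold, and the call was lost without control replicate 2 (-0.995) or 3 (-0.97) or without replicate 2 of 336 h (-0.94). ELF3 had 19.96, 18.3 and 19.8 FPKM at 336 h, against 37.4, 41.3 and 39.5 FPKM in control roots, a change just under the fold threshold (-0.99, SE 0.07). GI Potri.002G064400 was at 16.4 ± 0.78 FPKM at 336 h and 31.5 ± 1.3 FPKM in control roots (-0.90, SE 0.07). LUX was thus near its 12 h level of 23.0 FPKM at 336 h and GI somewhat above its own, while the LHY copies stood at opposite ends of their range at these times.

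At 336 h against 96 h, 1 of the 8 rose and 1 fell, against 2.71% and 4.96% of all genes. RVE8 Potri.016G083900 rose to 16.1 ± 0.51 FPKM at 336 h, against 5.71 ± 0.80 FPKM at 96 h (log2 fold change 1.35, SE 0.09, limma adjusted p = 1.3e-05). GI Potri.002G064400 fell to 16.4 ± 0.78 FPKM at 336 h, against 34.6 ± 1.3 FPKM at 96 h (-1.04, SE 0.06, limma adjusted p = 9.2e-06).

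**Figure D4:**
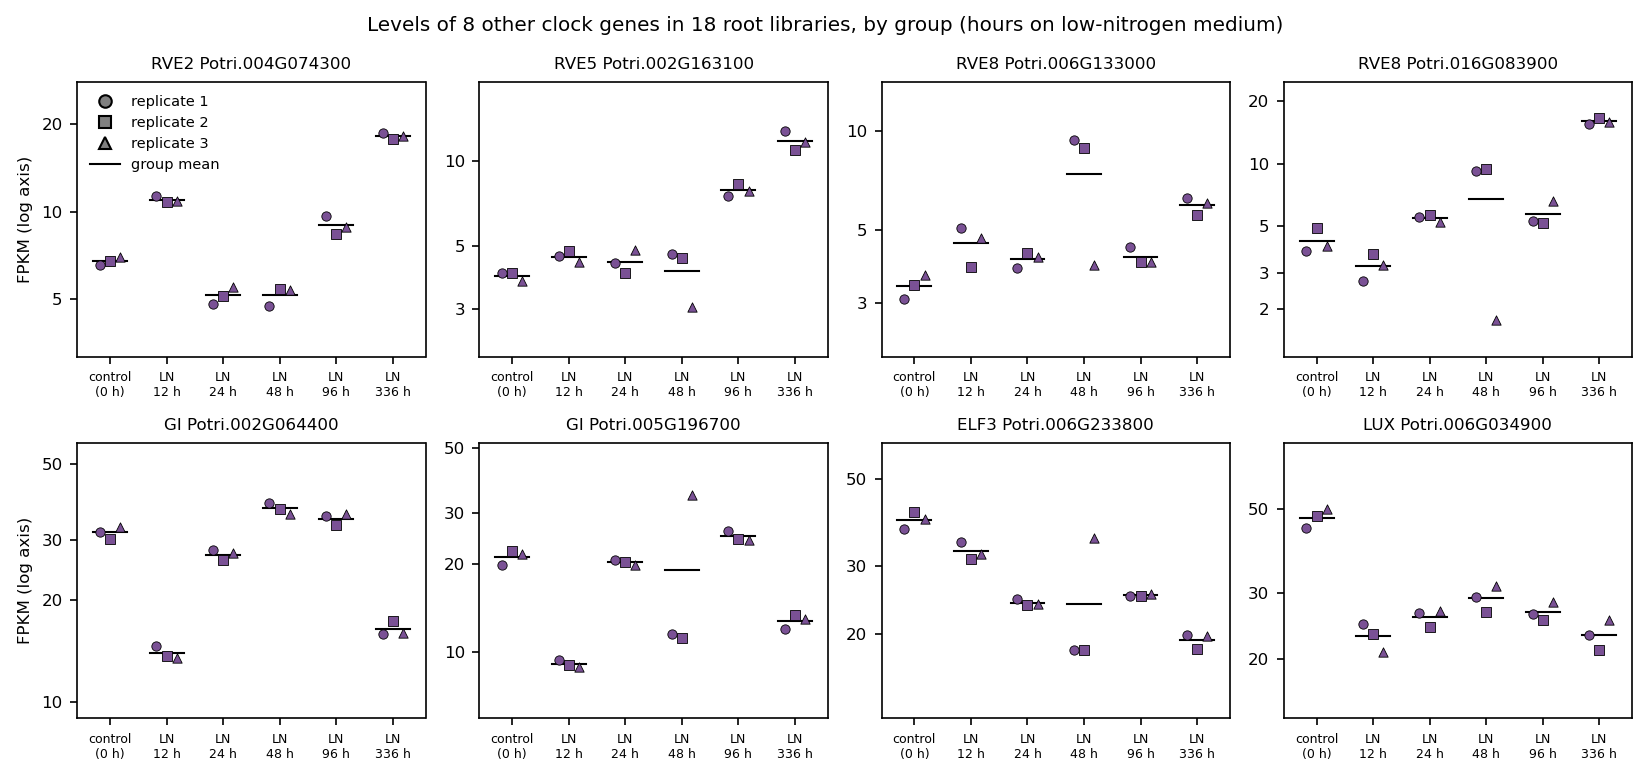
FPKM (log axis) of the 8 other clock genes in the 18 libraries, by group, with one symbol per replicate number and a line at the group mean. The GI genes are low at 12 h and at 336 h, GI Potri.005G196700 also in replicates 1 and 2 of 48 h, the REVEILLE genes RVE2, RVE5 and RVE8 Potri.016G083900 are highest at 336 h, and LUX is highest in the control.

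At 48 h replicate 3 differed from replicates 1 and 2 in LHY and in 3 of the 8 other clock genes by at least 2-fold. LHY was 9.10 times higher in the mean of replicates 1 and 2 than in replicate 3 for Potri.002G180800 and 9.97 times higher for Potri.014G106800. Among 22909 genes compared within this group, 11.4% were at least 2-fold apart on the log2(FPKM + 1) scale, and 183 and 164 genes had a higher ratio than the first and the second copy. Since this is a contrast between single libraries of a group, it has no test.

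RVE8 Potri.016G083900 had 9.23 and 9.44 FPKM in replicates 1 and 2, against 1.77 FPKM in replicate 3, below every other library of the series. RVE8 Potri.006G133000 had 9.43 and 8.86 FPKM, against 3.93 FPKM in replicate 3. GI Potri.005G196700 went the other way, with 11.5 and 11.2 FPKM in replicates 1 and 2 and 34.6 FPKM in replicate 3, its highest value in any library. ELF3 also was higher in replicate 3, at 35.3 FPKM, than in replicates 1 and 2, at 18.3 FPKM in each. GI Potri.002G064400 had 38.4, 37.0 and 35.7 FPKM and LUX 29.3, 26.7 and 31.4 FPKM, with replicate 3 close to the others. RVE2 had 4.76, 5.45 and 5.38 FPKM, and RVE5 had 4.70 and 4.56 FPKM in replicates 1 and 2 and 3.05 FPKM in replicate 3. In its low LHY, replicate 3 thus resembled 12 h, but its GI levels, at 34.6 and 35.7 FPKM, were far from the 8.92 to 14.7 FPKM of the GI genes at 12 h.

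Tested against control at 48 h, limma called none of the 8 clock genes, against 4.98% of all genes, and limma-voom also called none. By limma, 5 had an unadjusted and 1 an adjusted p under 0.05. Without replicate 3, limma called 2 of them, against 12.1% of all genes. RVE8 Potri.006G133000 rose (log2 fold change 1.21, SE 0.08, limma adjusted p = 2.3e-05) and ELF3 fell (-1.06, SE 0.07, limma adjusted p = 2.5e-05). RVE8 Potri.016G083900 then had a log2 fold change of 0.98 (SE 0.10), just under the threshold.

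The same libraries differed in jasmonate genes. Of 9 such genes, namely 8 TIFY genes, most of which encode JAZ repressors of jasmonate signalling, and AOC, a jasmonate biosynthesis enzyme, 8 were at least 2-fold higher in the mean of replicates 1 and 2 than in replicate 3, as were 7.59% of the genes compared. The list was taken from the study's tables with the difference between these libraries known, so its count is a description. Their summed level was 1480 and 1545 FPKM in replicates 1 and 2 and 100.2 FPKM in replicate 3, against 91.9 to 95.9 FPKM in control libraries. TIFY10A was at 379 and 392 FPKM in replicates 1 and 2 and 19.9 FPKM in replicate 3. The part of these genes in the LHY difference was not tested.

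**Figure D5:**
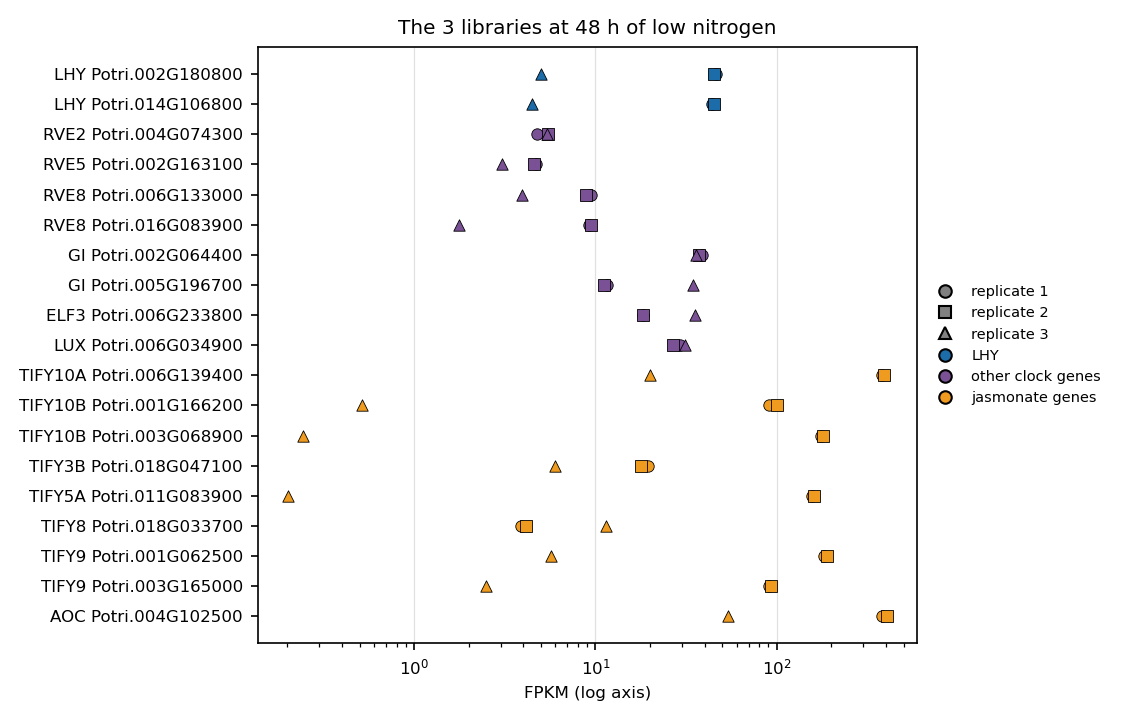
FPKM (log axis) of the LHY copies, the 8 other clock genes and 9 jasmonate genes in the 3 libraries of 48 h, one row per gene and one symbol per replicate number. Replicates 1 and 2 coincide in nearly every row, and replicate 3 lies lower for LHY, RVE8 and 8 jasmonate genes and higher for GI Potri.005G196700, ELF3 and TIFY8.

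Light enters the clock through photoreceptors and the transcription factor HY5, which in Arabidopsis also promotes nitrate uptake in roots. The blue-light receptor PHOT2 stayed at or below 0.198 FPKM in all libraries. CRY2 stayed at or below 1.45 FPKM and passed the filter on low values only for 336 h against 96 h, where it was not called. Both HY5 genes rose at 12 h, 24 h and 336 h against control, where 6.21%, 4.29% and 8.28% of all genes rose. Against control, HY5-like Potri.010G004200 rose at 336 h of these times (log2 fold change 1.23, SE 0.12, limma adjusted p = 5.2e-05), with 0.80 (SE 0.06) at 12 h and 0.59 (SE 0.07) at 24 h. HY5 Potri.006G251800 had 12.7, 10.5 and 11.9 FPKM at 12 h, against 1.86, 1.25 and 0.876 FPKM in control roots (log2 fold change 2.46, SE 0.15, limma adjusted p = 4e-06). It had 13.9, 16.3 and 12.1 FPKM at 336 h (2.71, SE 0.16, limma adjusted p = 3.2e-06 against control). At 48 h it had 1.52 and 1.69 FPKM in replicates 1 and 2, where LHY was high, and 6.39 FPKM in replicate 3. HY5 was thus high both when LHY was lowest and when it was highest. The call of HY5 Potri.018G029500 at 24 h (1.03, SE 0.07) was lost with quantile normalization (0.90), without control replicate 2 (0.99) and without replicate 3 of 24 h (0.99).

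Across the 18 libraries, the copies correlated with each other at r = 0.984 on the log2(FPKM + 1) scale, and at 0.965 without the 12 h libraries. Points of one time share their treatment, and libraries are few, so likeness to other genes is a description. Over the 16436 genes whose mean reached 5 FPKM, likeness was taken as the smaller of a gene's Pearson r with the copies. The highest values were those of Potri.014G168100 (0.94) and Potri.007G123300 (0.94), and 11 genes exceeded 0.9. None of the 5 genes most like LHY and of the 3 most opposite is annotated in the sources used here. Potri.014G168100 was at 44.0 ± 3.07 FPKM at 12 h and 99.4 ± 12.0 FPKM at 336 h. Of opposite pattern were Potri.004G152900 and Potri.009G028800, whose r with the copies were -0.95 and -0.95 and -0.96 and -0.94. Potri.009G028800 was at 451 ± 13.99 FPKM at 12 h and 189 ± 19.7 FPKM at 336 h.

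Of the 7 other clock genes that reached this minimum, RVE8 Potri.016G083900 was most like LHY, with r of 0.88 and 0.87 with the copies, and 0.94 for the lower of these without the 12 h libraries. RVE5 had 0.62 and 0.55, and ELF3 had -0.77 and -0.70. The GI genes were between 0.07 and 0.31, RVE2 at 0.15 and 0.11, and LUX at -0.05 and 0.06. RVE8 Potri.006G133000, whose mean of 4.93 FPKM was just under the minimum, had 0.53 and 0.48. The search was then repeated, after the values had been seen, over 550 of these genes that the study's tables annotate. Peroxidase 3 (Potri.012G042800), of the class III peroxidases of the cell wall, was most like LHY, with r of 0.94 and 0.90. It was at 1.41 ± 0.41 FPKM at 12 h, 14.2 ± 0.77 FPKM at 96 h and 19.3 ± 2.34 FPKM at 336 h, and at 48 h it was at 3.78 FPKM in replicate 3 and at 12.2 FPKM in the mean of the others. RVE8 Potri.016G083900 ranked next and a gene of the NPF transporter family (Potri.004G068500, r of 0.91 and 0.86) followed it. ACR11, an ACT domain protein (Potri.008G010400), was most opposite, with r of -0.93 and -0.88.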

How the data were processed

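The authors sequenced paired-end mRNA libraries of roots, aligned the reads to the P. trichocarpa reference (Bowtie2 2.2.3 and HISAT2 2.1.0 per the submitters' processing notes, with another aligner named in the methods) and deposited FPKM values per gene. Beyond gene identifiers of version v3.0, no build is stated. As every deposited FPKM value lay within 0.001 of a whole number of fragments (100% of values), fragments, gene lengths and totals were recovered and used for intervals and for an added limma-voom test.

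Each comparison was fitted with limma 3.58.1 (R 4.3.3) on log2(FPKM + 1) of its own 6 libraries, keeping genes that reached 1 FPKM in 3 or more of them, with Benjamini-Hochberg adjustment over all genes tested. In simulated data for 12 h against control, limma recovered 99.5% of 200 changed genes among 22205. The changes put in were well above the fold threshold, with one fixed spread between replicates. This recovery therefore does not cover genes near the threshold or a group with a divergent replicate. LHY ratios are of group mean FPKM. Copy ratios were compared with exact permutation tests (scipy 1.17.1). Named genes were the LHY copies, 8 clock and 5 light genes, and the 5 most like and 3 most opposite to LHY. Lists of 4 root, 4 green-tissue and 9 jasmonate genes from the study's tables, and annotated genes most like LHY, were added to these. Members, lists and tests were chosen with earlier results of these data known. Pseudocount, filter, normalization, model, replicate block and left-out libraries were varied. No sequences are shown.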

Additional observations from a re-analysis of the deposited data

Results flagged for a closer look

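For 6 of the 10 clock genes, LHY included, all libraries of one LN time point lay below all control libraries and all libraries of another lay above them, as for 20.4% of 24473 genes. These differences between time points were not tested. The LHY copies were chosen with their levels known, and the other clock genes from genes the study called in these samples. The count is therefore a description. As log2 ratios of mean FPKM to control, LHY Potri.002G180800 had -2.09 at 12 h and 1.79 at 336 h, and LHY Potri.014G106800 had -2.69 at 12 h and 1.51 at 336 h. RVE8 Potri.016G083900 had -0.39 at 12 h and 1.92 at 336 h. RVE2 had -0.39 at 24 h and 1.43 at 336 h. GI Potri.002G064400 had -1.18 at 12 h and 0.23 at 48 h, and GI Potri.005G196700 had -1.22 at 12 h and 0.23 at 96 h.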

How the results depend on the processing

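The log2 ratios of the LHY copies to control at 12 h and 336 h, and between time points, kept their direction under all alternatives run. For Potri.002G180800 and Potri.014G106800 at 12 h they were -1.82 and -2.33 as differences of mean log2(FPKM + 1), -2.23 and -2.81 after quantile normalization over 18 libraries, and -2.25 and -2.85 with median-ratio scaling of fragments, which was chosen after seeing the data. For 24 h against 12 h the differences of mean log2(FPKM + 1) were 2.08 and 2.38. Median-ratio scaling gave log2 ratios to control of 0.17 and -0.059 (24 h), 0.54 and -0.18 (96 h), and 1.55 and 1.27 (336 h). Quantile normalization gave Potri.002G180800 0.20 (24 h), 0.59 (96 h) and 1.69 (336 h), and Potri.014G106800 -0.12 (96 h). At 48 h, leaving out each library gave 0.80 to 1.66 and 0.40 to 1.28, the highest without replicate 3 of 48 h. The copy ratio stayed above that of the control at each time point with a pseudocount of 1 and without each library. The number of the 8 clock genes called at 48 h ranged from 0 to 2 without each library. For 24 h against 12 h it was 1, but 2 with a pseudocount of 0.1, 3 with limma-voom and 1 to 2 without each library. At 96 h it was 1 with limma-voom in place of 0, and at 336 h it was 4, but 6 with quantile normalization or limma-voom. Apart from 48 h without replicate 3, the shares of all genes called under these alternatives are not given. The count at 336 h also moved with a pseudocount of 0.1 and without single libraries. There ELF3 gained a call under 6 of 12 alternatives and LUX lost its call under 3. The cause was not tested. With the replicate number as a block, 3 clock genes were called at 12 h, 4 at 336 h, 1 for 24 h against 12 h and 2 for 336 h against 96 h, as without it. The numbers do not pair the libraries, since 5 of 45 same-numbered pairs had deviations correlated above 0.1 (range -0.20 to 0.18) and 7 of 18 libraries correlated best with their own number. Of the 5 genes most like LHY, 3 stayed among the 20 most like with Spearman's rho and 3 without the 12 h libraries. Group sizes of 3 limit all tests, and at 12 h fragment numbers of 171 to 243 limit the copy ratio.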

Other observations

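RNA of genes of green tissue was present in these roots, and at 12 h and 336 h, the ends of the range of LHY, its summed level was lower than in control roots. The list held 4 genes, namely a pair of genes for CP29.2, a minor chlorophyll-binding antenna protein, and genes for the photosystem II 10 kDa protein and for HCF136, a photosystem II assembly factor. Their summed level was 153 to 166 FPKM at 12 h, 254 to 258 FPKM at 24 h, 330 to 354 FPKM at 96 h and 72.8 to 97.2 FPKM at 336 h, against 347 to 365 FPKM in control libraries, and the CP29.2 genes made up most of it. At 48 h it was 147 and 149 FPKM in the replicates with high LHY and 231 FPKM in replicate 3. By limma, 4 of 4 fell at 336 h, against 4.07% of all genes, and 1 of 4 at 12 h, against 2.62%. HCF136 did not share the lower level at 12 h, with 22.5 ± 1.05 FPKM at 12 h and 15.9 ± 1.17 FPKM in control roots (log2 fold change 0.48, SE 0.07, not called). CP29.2 Potri.006G099500 was at 55.2 ± 1.46 FPKM at 12 h, 29.7 ± 6.65 FPKM at 336 h and 183 ± 2.69 FPKM in control roots. The list was made from genes that the study called in these samples, and its part in the LHY levels was not tested.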
